A study of Bos taurus with 6 samples.

Results

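The telomere-proximal ends of the bovine autosomes were defined as the last 2 Mb of each of 27 autosomes, counted back from the largest CpG position listed for that chromosome in any library on the UMD3.1 assembly. They cover chromosomes 1 to 29 except 18 and 29. The members were the CpGs of these ends covered by 5 to 500 reads in all 6 libraries (CpGs 5-500). There were 210177 of them, out of 1398166 such CpGs on the 27 chromosomes and 1580644 on all sequences. The distance from the end is a distance on the assembly, and how much sequence lies between the last listed base and the telomere was not analysed here. Neither position nor coverage uses the methylation level, so that methylation could be tested.

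DNA methylation was measured by reduced representation bisulfite sequencing (RRBS), in which the genome is cut by MspI at CCGG sites and short fragments are converted by bisulfite and sequenced. The groups were sperm, monocytes and fibroblasts, all from the Holstein breed and with no treatment named. Sperm came from commercial semen straws of 2 bulls, and CD14 bead-purified blood monocytes from 2 cows. Fibroblasts were passaged primary cultures of ear skin from 2 adult heifers. Each library came from its own animal, and replicates of a cell type were separate animals. The sex of the animals, growth in culture and the number of PCR cycles (12 for monocytes, 14 for sperm and fibroblasts) followed the cell types and cannot be told apart from them. The median X to autosome coverage ratio was 0.556 and 0.6 in the sperm libraries and 0.867 to 0.923 in the 4 others. The sperm donors were male and the other donors female.

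Cattle autosomes are acrocentric: the centromere lies at the start of the assembled chromosome and the other end borders the telomere. In mammals, subtelomeric sequence is often rich in GC, in CpGs and in recombination, and lies next to telomeric repeats packed as heterochromatin. CpG methylation is maintained across most of the genome, is usually absent from CpG-dense islands at promoters, and is erased and set anew in the male germline. Fibroblasts kept in culture commonly acquire partially methylated stretches.

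The ends were rich in CpGs that RRBS can read. They made up 54 Mb, or 2.26% of the length of the 27 chromosomes, and held 15.0% of the CpGs 5-500, which is 3892 per Mb against 508 per Mb in the rest. Of 557169 CpGs listed in the ends, 346725 fell under 5 reads in at least 1 library and 323 exceeded 500 reads, so that 37.7% were kept, against 31.4% in the rest of the same chromosomes. The median coverage of the members was between 15 and 24 reads per library, and in the rest it was between 15 and 25. Single CpGs are read coarsely at such coverage, and means over many CpGs far more finely. The number of members per end ranged from 574 on chromosome 27 to 22065 on chromosome 17, and the chromosome 17 end alone held 10.5% of all members.

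Methylation was high in the ends in all 3 cell types. The members averaged 71.8% and 71.3% in the 2 libraries of sperm, 73.3% and 73.2% in those of monocytes, and 63.7% and 64.3% in those of fibroblasts. Fibroblasts were thus the lowest of the 3, and sperm and monocytes lay close to each other without overlapping. The rest of the same chromosomes averaged 45.2% and 44.8% for sperm, against 50.2% and 49.9% for monocytes and 42.7% and 43.1% for fibroblasts. Each library was therefore more methylated in the ends than in the rest, by 26.5 points ± 0.136 (SD, n = 2) for sperm, 23.2 points ± 0.124 for monocytes and 21.1 points ± 0.0847 for fibroblasts. Over the 6 libraries the difference averaged 23.6 points and was positive in 6 of 6, with p = 0.03125 in an exact two-sided sign-flip permutation test. This is the smallest p that 6 libraries can give, and it did not pass after Benjamini-Hochberg adjustment over the 5 comparisons of the family (adjusted p = 0.156).

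The plot of mean methylation by position on the chromosome sets the ends beside the opposite extremity. The first 2 Mb of the same chromosomes, next to the centromere, held 44012 CpGs 5-500 and averaged 47.1% ± 0.282 (SD, n = 2) for sperm, 58.0% ± 0.334 for monocytes and 48.2% ± 0.417 for fibroblasts. The telomere-proximal ends exceeded them by 24.5 points for sperm, 15.2 points for monocytes and 15.8 points for fibroblasts. The difference averaged 18.5 points and was positive in 6 of 6 libraries (exact sign-flip permutation p = 0.03125, adjusted p = 0.156). The gap between the extremities was wider in sperm than in somatic cells (somatic minus sperm -8.99 points). All sperm values lay outside the somatic range, and the exact two-sided permutation test gave p = 0.0667, the smallest that 2 against 4 libraries allow (adjusted p = 0.167).

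**Figure D1:**
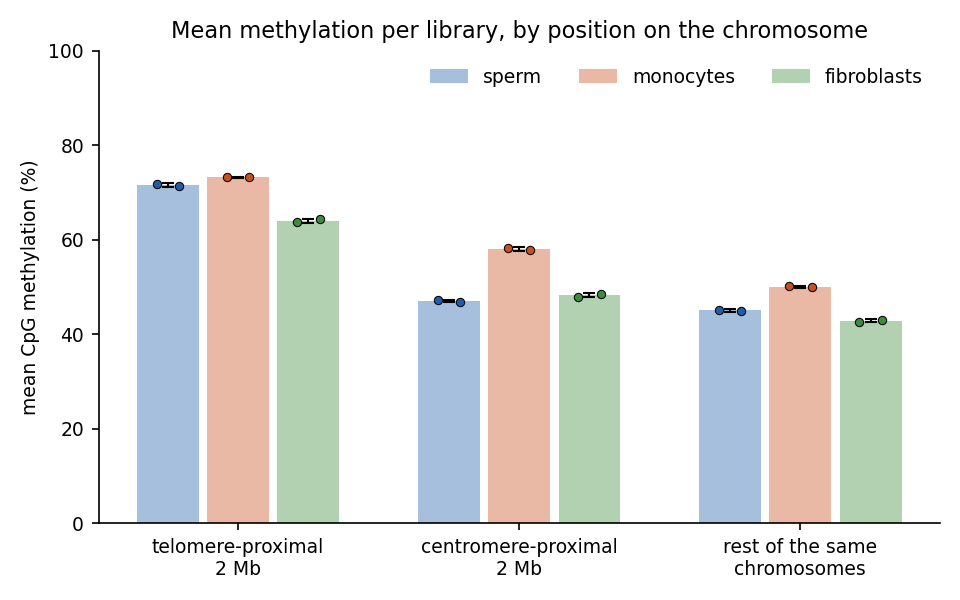
Mean CpG methylation (%, y axis from 0) of the telomere-proximal 2 Mb, the centromere-proximal 2 Mb and the whole rest of the same 27 chromosomes. Bars are the means of 2 libraries per cell type, error bars the SD and points the libraries. All 6 libraries lie between 63.7% and 73.3% in the telomere-proximal ends and between 42.7% and 50.2% in the rest.

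Between cell types, the ends differed by amounts larger than the gaps between replicates, but 2 animals per group limit the tests. Monocytes exceeded sperm by 1.70 points and fibroblasts by 9.24 points, and fibroblasts minus sperm came to -7.54 points. None of these comparisons of 2 with 2 libraries can go below p = 0.333 in an exact permutation test, and each had that value. The mean of the 4 somatic libraries minus that of sperm was -2.92 points, with the sperm values inside the somatic range (exact permutation p = 0.533). The order of the means, fibroblasts below sperm below monocytes, was the same in the rest of the chromosomes, where sperm lay closer to fibroblasts than to monocytes. The end minus rest difference was smaller in somatic cells than in sperm, by -4.37 points (exact permutation p = 0.0667, adjusted p = 0.167). These means weigh each CpG equally. When each of the 27 chromosomes counted equally instead, somatic cells were above sperm in the ends by 1.93 points (exact permutation p = 0.733). The end minus rest difference then averaged 20.98 points over the 6 libraries, and somatic minus sperm of this difference was -0.0611 points (exact permutation p = 0.933), with monocytes minus sperm at 1.05 points. The smaller end minus rest difference of somatic cells was thus seen only with CpGs weighed equally, of these 2 ways of averaging.

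The classes of CpGs showed where these means came from. Hypomethylated CpGs (under 20%) were 24.5% and 24.8% of the members for sperm, against 18.8% and 19.0% for monocytes and 20.3% and 19.98% for fibroblasts. In the rest they were more frequent in each library, at 51.6% and 51.95%, 43.8% and 44.1%, and 45.6% and 45.3%. The ends thus held fewer hypomethylated CpGs in each library, with a mean difference of -25.8 points (exact sign-flip permutation p = 0.03125, adjusted p = 0.156). Hypermethylated CpGs (over 80%) made up 70.0% and 69.3% of the members for sperm, against 68.8% and 68.3% for monocytes and 47.1% and 48.2% for fibroblasts, and exceeded their share in the rest by 22.5 points on average with the same p values.

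Intermediate CpGs (20 to 80%) set fibroblasts apart. They made up 32.6% and 31.8% of the members in fibroblasts, 12.4% and 12.6% in monocytes, and 5.46% and 5.86% in sperm. Sperm had the same share in the ends as in the rest within the spread of its replicates (difference 0.0163 points ± 0.240, SD, n = 2). Fibroblasts had 7.93 points ± 0.255 more intermediate CpGs in the ends than in the rest, and monocytes 2.05 points ± 0.183 more. Over the 6 libraries this difference averaged 3.33 points (exact sign-flip permutation p = 0.0625, adjusted p = 0.312). By the mean of each cell type, 36.9% of the members were hypermethylated in all 3 cell types (21.97% in the rest), and 20.7% were hypermethylated in sperm and monocytes but intermediate in fibroblasts (12.7% in the rest). A further 14.1% were hypomethylated in all 3, against 39.7% in the rest. Counted in single libraries, 13.2% of the members were under 20% in all 6 (27670 CpGs), against 37.9% in the rest, and 28.4% were over 80% in all 6 (59742 CpGs), against 17.0%.

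The 2 Mb limit did not coincide with a step in methylation. In bins of 500 kb, the 4 bins of the ends lay between 71.1% and 72.0% for sperm, against 72.1% and 74.7% for monocytes and 63.2% and 65.0% for fibroblasts. From 2 to 3.5 Mb the level was as high, at 71.5% ± 0.349 (SD, n = 2) for sperm, 74.2% ± 0.124 for monocytes and 64.6% ± 0.192 for fibroblasts. It fell further inside, to 59.5% ± 0.316 in sperm from 3.5 to 10 Mb, 48.0% ± 0.262 from 10 to 20 Mb and 36.7% ± 0.225 beyond 20 Mb. Monocytes followed at 62.3%, 51.4% and 43.2%, and fibroblasts at 53.8%, 44.0% and 36.7%. With CpGs pooled over chromosomes, the level in the 3 cell types thus held to 3.5 Mb, dropped there and declined with local peaks beyond. From the bin before 3.5 Mb to the bin after it, sperm fell from 69.1% to 61.3%. Monocytes fell from 72.0% to 64.6% and fibroblasts from 64.6% to 56.4%. When each chromosome counted equally, the outermost 500 kb was the lowest of the 4 bins of the ends. It averaged 59.2% for sperm, 66.3% for monocytes and 56.6% for fibroblasts. Sperm then fell from 64.2% to 57.9% across 3.5 Mb, but was back at 68.0% from 5 to 5.5 Mb. Monocytes were at 73.0% and fibroblasts at 61.1% in that bin, so that no lasting step remained at 3.5 Mb. The number of CpGs 5-500 per Mb was 3892 in the ends, 2286 from 2 to 3.5 Mb and 1139 from 3.5 to 10 Mb. It was 688 from 10 to 20 Mb and 383 beyond. This number already fell between the ends and 2 to 3.5 Mb, where methylation did not.

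**Figure D2:**
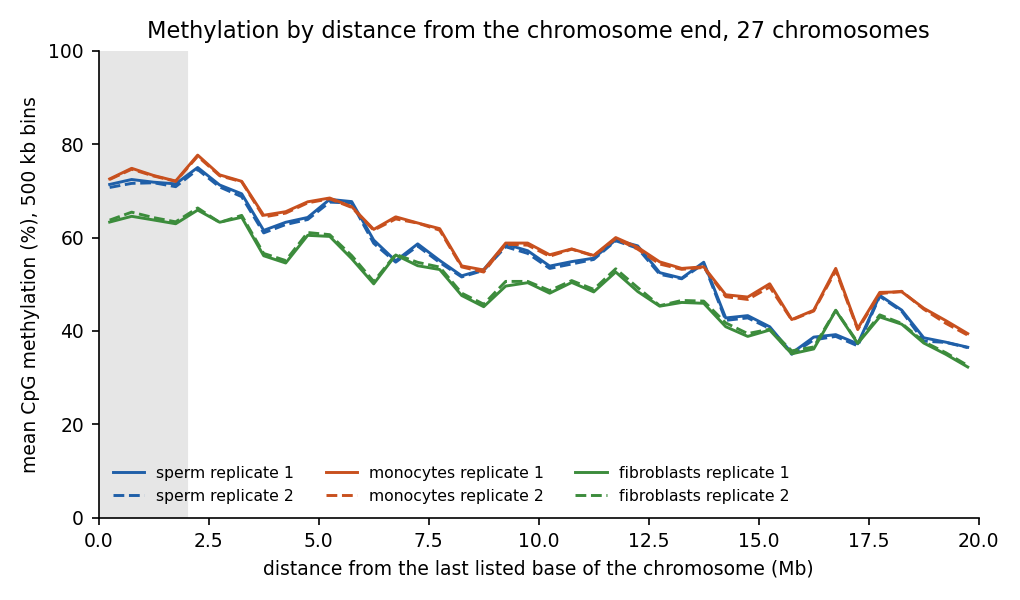
Mean CpG methylation (%, y axis) in bins of 500 kb against the distance from the last listed base of the chromosome (Mb, x axis), pooled over 27 chromosomes, with 1 line per library and the 2 Mb ends shaded. The lines of the 2 replicates of a cell type nearly coincide. All lines are high over the shaded range and up to 3.5 Mb, and descend with local peaks to 20 Mb.

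At a finer scale the outermost 100 kb was the lowest of the 20 bins of the ends in the sperm and fibroblast libraries, by a wider margin in sperm. Its 7588 CpGs averaged 60.6% and 60.0% for sperm, against 69.5% and 69.0% for monocytes and 57.5% and 58.7% for fibroblasts. Across the 19 other bins of 100 kb in the ends, the sperm libraries lay between 66.6% and 80.2%, the fibroblast libraries between 58.4% and 69.8%, and the monocyte libraries between 67.4% and 81.04%. The outermost bin was thus not the lowest in monocytes. In this bin monocytes exceeded sperm by a wider margin than over the ends as a whole.

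The ends were more methylated than the rest in CpG-dense as well as in CpG-poor sequence. The gap was smallest in the CpG-poorest sequence, and the densest sequence of the ends was not highly methylated. Local CpG density was taken as the number of CpGs listed within 500 bp on either side, and its median was 39 in the ends and 36 in the rest. Where 1 to 14 CpGs were listed, ends and rest were close, at 90.3% and 87.0% for sperm, against 85.3% and 83.0% for monocytes and 70.5% and 67.7% for fibroblasts. Where 47 to 67 were listed, the ends averaged 65.1% for sperm, 71.1% for monocytes and 64.1% for fibroblasts, and the rest 16.4%, 28.4% and 25.8%. These are gaps of 48.7, 42.7 and 38.3 points, the widest of the 5 strata in each cell type. In the densest stratum (68 to 182 CpGs) the ends fell to 24.8% for sperm, 38.5% for monocytes and 37.0% for fibroblasts, still above the 3.60%, 12.2% and 11.5% of the rest. The drop in methylation with density therefore began at a higher density in the ends. With the rest weighted to the density mix of the ends, the end minus rest difference was 30.4 and 30.1 points for sperm, 25.3 and 25.5 points for monocytes, and 22.4 and 22.6 points for fibroblasts, larger than without weighting in each library. This weighting was chosen after the data had been seen.

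**Figure D3:**
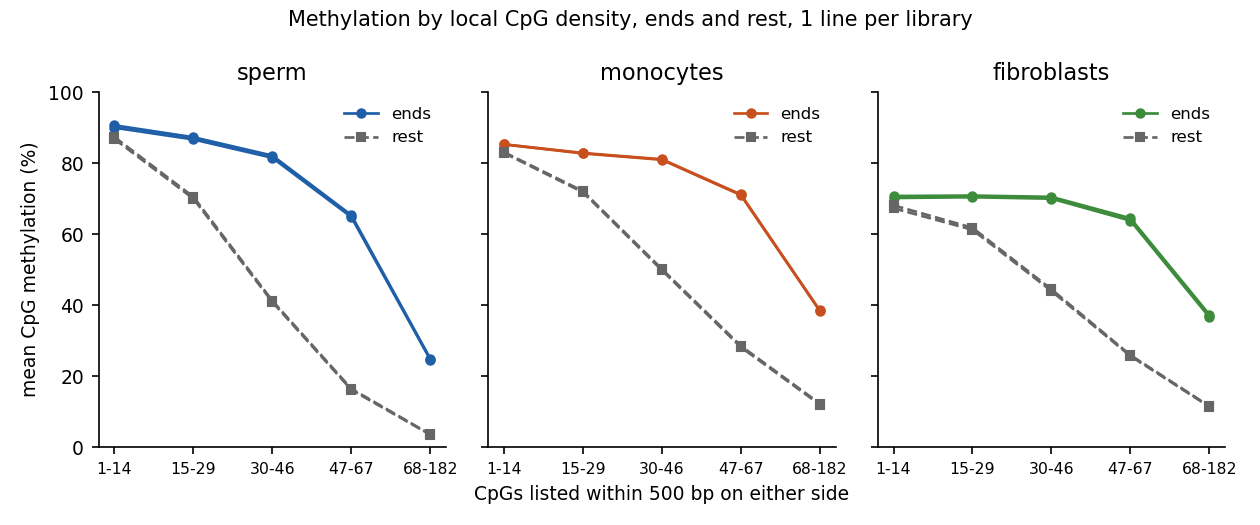
Mean CpG methylation (%, y axis) in 5 strata of local CpG density (CpGs listed within 500 bp on either side, x axis), in 1 panel per cell type, with 1 line per library for the ends (solid) and for the rest (dashed). The 2 lines of a cell type overlie each other. Ends and rest start at close levels and separate from the second stratum on, up to 65.1% against 16.4% in sperm at 47 to 67 CpGs.

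The 27 ends were not alike. In sperm replicate 1 their means ranged from 42.0% to 82.7% with a median of 72.0%, and the SD over ends was 12.0 points, against 6.02 points for the rests of the same chromosomes. The spread over ends was smaller in monocytes (SD 6.25 points in both libraries) and fibroblasts (5.68 and 5.50 points). The end was above the rest of its own chromosome in 26 of 27 chromosomes in both sperm libraries, in 26 of 27 in both monocyte libraries and in 27 of 27 in both fibroblast libraries. The exceptions were chromosome 14 in sperm, where end minus rest was -4.14 and -3.62 points, and chromosome 28 in monocytes, where it was -1.91 and -1.78 points. The largest gap between the replicates of a cell type in any end was 3.49 points, for fibroblasts on chromosome 1.

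By mean over the 6 libraries, the highest ends were those of chromosomes 9, 6 and 5. The chromosome 9 end averaged 77.5% and 77.2% for sperm, against 81.9% and 81.7% for monocytes and 73.5% and 73.4% for fibroblasts. The chromosome 6 end averaged 82.7% and 81.9% for sperm, against 78.3% and 78.1% for monocytes and 65.6% and 65.8% for fibroblasts. Sperm was thus above monocytes on chromosome 6 and below them on chromosome 9. The lowest were those of chromosomes 28, 1 and 14. The chromosome 28 end, with 1310 members, was low in the 3 cell types, at 45.003% and 44.9% for sperm, against 46.6% and 46.3% for monocytes and 41.8% and 41.9% for fibroblasts.

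The chromosome 1 and 14 ends were low above all in sperm. On chromosome 1 (814 members) sperm averaged 42.0% and 40.9%, monocytes 73.2% and 73.9%, and fibroblasts 52.4% and 55.9%. On chromosome 14 (1841 members) sperm averaged 44.4% and 44.6%, monocytes 66.1% and 66.8%, and fibroblasts 59.0% and 58.1%. The sperm minus somatic difference was lowest on chromosomes 1 (-22.4 points), 7 (-20.4 points) and 24 (-18.6 points), and highest on chromosomes 6 (10.3 points), 25 (8.02 points) and 5 (7.08 points). Sperm on chromosome 7 averaged 52.0% and 50.5% against 68.3% to 75.1% in the 4 somatic libraries, and on chromosome 24 50.1% and 49.5% against 65.1% to 71.7%. On chromosome 25 the order was the reverse, with 75.8% and 75.5% for sperm, against 71.9% and 71.7% for monocytes and 63.1% and 63.9% for fibroblasts.

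**Figure D4:**
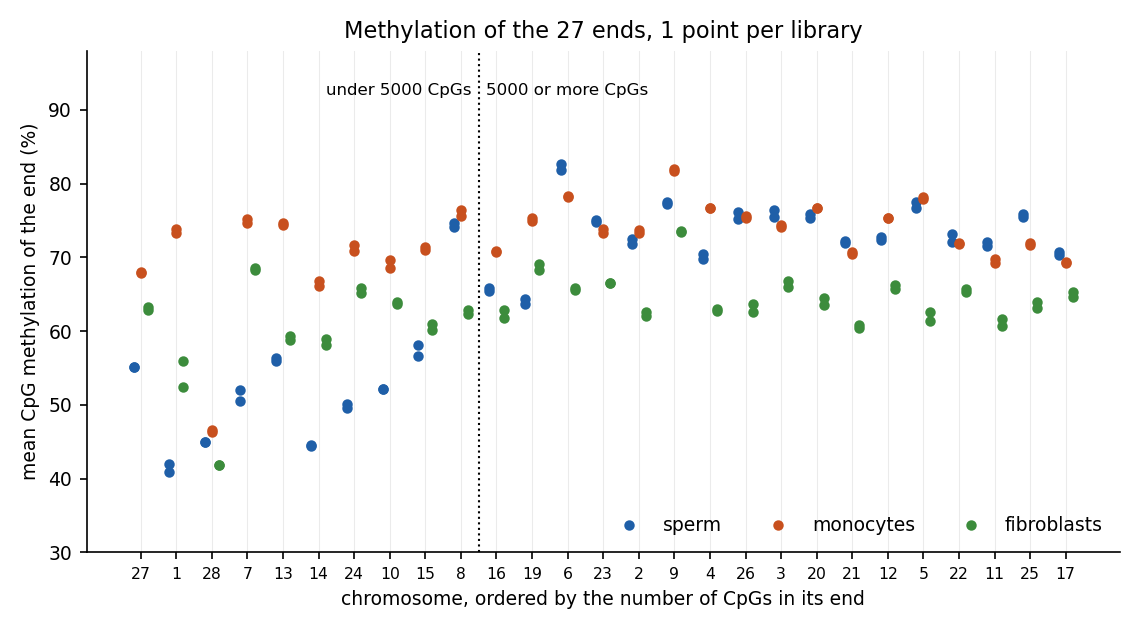
Mean CpG methylation of the end (%, y axis, cut at 30) for each of the 27 chromosomes, ordered from left to right by the number of CpGs 5-500 in the end, with 1 point per library. The dotted line parts the 10 ends with under 5000 CpGs from the 17 others. Sperm points lie between 40.9% and 74.6% to its left and between 63.6% and 82.7% to its right.

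The direction of the sperm to somatic difference mostly went with the number of CpGs in the end. In the 10 ends with under 5000 members (22891 CpGs, on chromosomes 1, 7, 8, 10, 13, 14, 15, 24, 27 and 28), the median sperm minus somatic difference was -12.4 points. In the 17 others (187286 CpGs) it was 4.89 points. Averaged over CpGs, the smaller ends had 56.6% and 56.1% for sperm, against 70.7% and 70.4% for monocytes and 61.0% and 61.3% for fibroblasts, and the larger ones 73.7% and 73.1%, 73.6% and 73.5%, and 64.1% and 64.7%. The 2 sets thus lay further apart in sperm than in either somatic cell type. Over the 27 ends, the log10 number of members and the sperm minus somatic difference had r = 0.774 and rho = 0.747, as a description of ends that share the same 6 libraries. The limit of 5000 was chosen after the values had been seen. Monocytes were above fibroblasts in both replicates in 27 of 27 ends, whereas they were above sperm in 18 and below it in 8. Fibroblasts were above sperm in 9 ends and below it in 18.

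Differentially methylated cytosines (DMCs) were called on the read counts summed over replicates, by a logistic regression and its likelihood-ratio test with Benjamini-Hochberg adjustment over all 1580644 CpGs, at adjusted p under 0.01 and a difference of at least 25 points. This test does not carry the spread between animals. Between monocytes and sperm, 41283 members were DMCs (19.6%), against 18.8% of all CpGs tested and 17.7% in the rest, a share near the background. Between fibroblasts and sperm, 70729 members were DMCs (33.7%), against 28.3% of all CpGs tested and 26.4% in the rest. Between monocytes and fibroblasts, 42302 were DMCs (20.1%), against 17.0% of all CpGs tested and 16.2% in the rest. Without monocytes replicate 1 this last share was 13.1% (27630 CpGs), against 10.7% in the rest. With a difference of at least 50 points instead of 25, the shares were 19.2% of the members between fibroblasts and sperm (16.4% of all CpGs tested) and 9.03% between monocytes and fibroblasts (7.99% of all CpGs tested). A fit per CpG with limma keeps the spread between animals. It was called at adjusted p under 0.05, a looser limit than 0.01, and the same 25 points. At these limits it called 19.0%, 32.6% and 18.1% of the members in the 3 comparisons, against 18.4%, 27.5% and 15.4% of all CpGs tested. Its shares are therefore not at the same threshold as those above. At 98.1%, 98.4% and 98.1% of the end DMCs the replicates of the 2 cell types did not overlap, against 98.7%, 98.7% and 98.4% in the rest. Calling at a difference of at least 25 points already favours such CpGs. Between the replicates of a cell type the same test called 0.505% of the members for sperm, 0.229% for monocytes and 0.853% for fibroblasts. In the rest these shares were lower, at 0.263%, 0.167% and 0.659%.

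The direction of the DMCs differed from that in the rest in both comparisons with sperm. Monocytes were the higher at 59.9% of the end DMCs between monocytes and sperm, against 71.9% in the rest. Fibroblasts were the higher at 32.8% of the end DMCs between fibroblasts and sperm, against 43.6% in the rest. Put over all members, 7.87% were DMCs with sperm above monocytes (5.48% of all CpGs tested), and 22.6% with sperm above fibroblasts (16.2% of all CpGs tested). The reverse DMCs, with sperm below, were 11.8% (13.3% of all CpGs tested) against monocytes and 11.0% (12.1% of all CpGs tested) against fibroblasts. Monocytes were the higher at 79.8% of the end DMCs between monocytes and fibroblasts, close to the 80.6% of the rest. Put over all members, monocytes were above fibroblasts at 16.1% (13.7% of all CpGs tested) and below at 4.07% (3.30% of all CpGs tested). Both comparisons with sperm share the sperm libraries and are not independent of each other.

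Sperm-specific DMCs were those called against both somatic cell types and not called between monocytes and fibroblasts. They were 25720 in the ends, 12.2% of the members, against 11.4% of all CpGs tested and 10.6% in the rest. Sperm was the lower at 71.8% of them (95% Wilson interval 71.3 to 72.4, for counting error only), against 79.3% in the rest and 87.3% next to the centromere. The interval takes CpGs as independent. Many are neighbours and all come from the same libraries, so it is too narrow, and the difference between these shares was not tested. CpGs lower in sperm than in both somatic types were 18470, or 8.79% of the members, close to the 8.98% of all CpGs tested. CpGs higher in sperm were 7250, or 3.45% of the members, against 2.43% of all CpGs tested and 2.20% in the rest. The ends thus held sperm-hypomethylated CpGs at about the background share and sperm-hypermethylated CpGs above it. In the ends with under 5000 members, 17.7% of the CpGs were lower in sperm and 2.11% higher, and in the others 7.70% and 3.61%. The median coverage at the sperm-lower DMCs was 17 and 18 reads in these 2 sets of ends, and 18 reads over all members.

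CpGs at which fibroblasts or monocytes stood apart were counted the same way, as a DMC against both other cell types where these 2 were not DMCs. Fibroblasts were lower at 26104 members (12.4%), against 9.23% of all CpGs tested and 8.63% in the rest. This was the most common of the 6 patterns in the ends and also in the rest. Of all such CpGs on the 27 chromosomes, 20.3% lay in the ends, which held 15.0% of the CpGs 5-500. The median percentage at these CpGs was 44.7% in fibroblasts, 94.1% in monocytes and 100% in sperm, so that they were mostly partially methylated in fibroblasts rather than unmethylated. Fibroblasts were higher at 1450 members (0.690%, against 0.953% of all CpGs tested). Monocytes were lower at 4569 members (2.17%, against 1.46% of all CpGs tested) and higher at 2471 (1.18%, against 1.82% of all CpGs tested). For each cell type, CpGs lower than in both others outnumbered CpGs higher than in both others in the ends. In all, 83022 members (39.5%) were DMCs in at least 1 comparison, against 33.9% of all CpGs tested, and 5489 (2.61%) in all 3, against 2.63%.

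The test on tiles of 100 kb, counted back from the chromosome end, keeps the spread between animals. It was fitted with limma over 10620 tiles with at least 20 CpGs, of which 495 were in the ends, and called at a Benjamini-Hochberg adjusted p under 0.05 and a difference of at least 10 points. Between sperm and the mean of monocytes and fibroblasts, 239 end tiles were called (48.3%), against 36.3% of all tiles and 35.7% of the tiles in the rest. Sperm was higher in 117 of them (23.6% of the end tiles, against 16.8% of all tiles) and lower in 122 (24.6%, against 19.5% of all tiles). Higher and lower refer to the mean of monocytes and fibroblasts, not to each of them. For example, chr1:157459217-157507666 was called higher with 92.3% in sperm, 95.9% in monocytes and 51.7% in fibroblasts. In turn, chr1:156963490-157031676 was called lower with 47.8%, 92.4% and 45.8%. How many tiles were of these kinds was not counted. Between monocytes and fibroblasts, 220 end tiles were called (44.4%), against 32.5% of all tiles and 31.9% of those in the rest. Monocytes were higher in 219 of them (44.2%, against 30.8% of all tiles) and lower in 1 (0.202%, against 1.69%). The tiles higher in monocytes were found in 27 of 27 ends, with a median difference of 17.6 points.

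Tiles higher and tiles lower in sperm than the mean of monocytes and fibroblasts often lay in the same end. By this contrast a tile can count as higher in sperm where fibroblasts alone were low, as in the chromosome 1 example above. It can also count as lower where fibroblasts were as low as sperm. The counts and sizes below do not set such tiles apart. In 21 of 27 ends both kinds were called, in 4 only tiles lower in sperm (chromosomes 7, 10, 14 and 24) and in 2 only tiles higher (chromosomes 11 and 17). Tiles lower in sperm were 76 of 164 in the ends with under 5000 members and 46 of 331 in the others, and tiles higher in sperm were 17 of 164 and 100 of 331. The median tile lower in sperm held 132.5 CpGs and the median tile higher in sperm 438, against 317 over the end tiles. The decreases reached larger sizes than the increases: the median difference was -20.9 points in tiles lower in sperm, with -72.7 as the lowest, and 15.0 points in tiles higher in sperm, with 30.7 as the highest.

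The 3 tiles with the largest differences in each direction were named after their values had been seen. The tile with the largest decrease lay on chromosome 7 (chr7:111137397-111228192, first to last CpG, 86 CpGs). It averaged 19.1% and 12.4% for sperm, against 92.4% and 93.0% for monocytes and 84.5% and 83.8% for fibroblasts (limma, Benjamini-Hochberg adjusted p = 3.48e-06, SE 1.92 points). On chromosome 24 (chr24:61715727-61799716, 157 CpGs) sperm averaged 21.5% and 23.8%, monocytes 95.2% and 94.5%, and fibroblasts 92.8% and 89.5%. Of these 157 CpGs, 127 were sperm-specific DMCs. On chromosome 1 (chr1:157140701-157227242, 131 CpGs) sperm averaged 16.7% in both libraries, monocytes 87.6% and 87.3%, and fibroblasts 78.0% and 81.0%. These 3 tiles were thus low in sperm and high in both somatic cell types, and all 3 are in ends with under 5000 members.

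The tiles with the largest increases in sperm followed another pattern, in which monocytes lay between sperm and fibroblasts. On chromosome 2 (chr2:135358772-135451482, 312 CpGs) sperm averaged 95.2% in both libraries, monocytes 75.3% and 77.6%, and fibroblasts 51.8% and 53.3% (limma, Benjamini-Hochberg adjusted p = 6.55e-06, SE 0.998 points). On chromosome 21 (chr21:70594783-70691788, 343 CpGs) sperm averaged 96.2% and 96.0%, monocytes 88.8% and 90.8%, and fibroblasts 51.4% and 52.3%. On chromosome 5 (chr5:120391088-120483743, 531 CpGs) the values were 95.5% and 94.5%, 85.1% and 84.4%, and 53.2% and 54.3%. In each of these tiles fibroblasts lay further from sperm than monocytes did, and monocytes exceeded fibroblasts by 23.9, 38.0 and 31.0 points. The 1 end tile lower in monocytes than in fibroblasts lay on chromosome 27 (chr27:43617677-43678953, 28 CpGs), with 43.2% and 51.1% in monocytes, 74.3% and 72.1% in fibroblasts, and 67.2% and 66.7% in sperm.

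**Figure D5:**
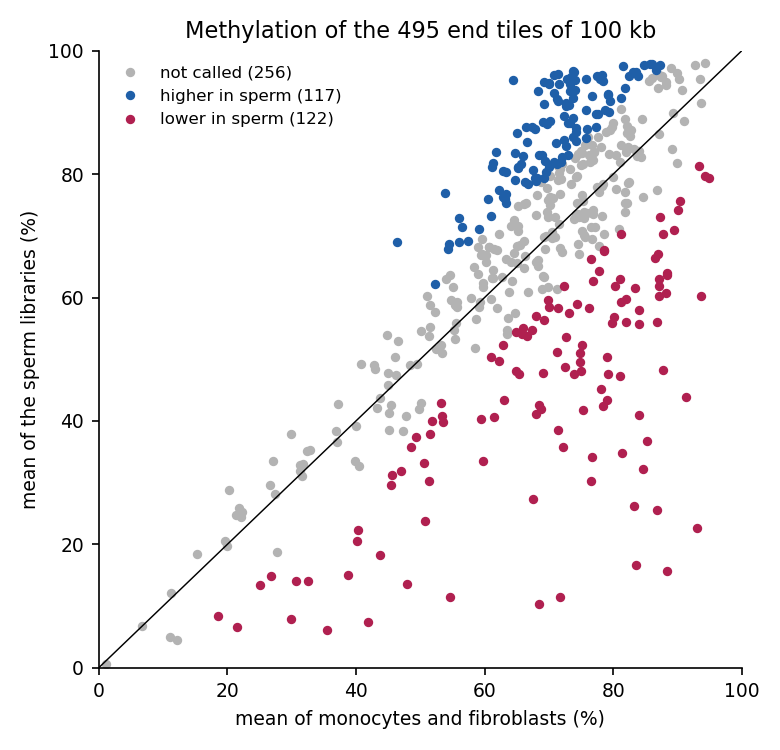
Mean methylation of each of the 495 end tiles of 100 kb in sperm (%, y axis) against the mean of monocytes and fibroblasts (%, x axis). Points are tiles, coloured by the limma call (117 higher in sperm, 122 lower, 256 not called), and the line marks equal values. Tiles lower in sperm spread far below the line, down to -72.7 points, whereas tiles higher in sperm stay within 30.7 points of it.

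DMCs of a pattern were joined into regions where neighbours lay within 1000 bp. CpGs lower in sperm were the most clustered: they formed 1609 regions in the ends with a median of 6 DMCs, and 81.9% of them lay in the 580 regions with 10 or more. CpGs higher in sperm formed 2181 regions with a median of 2 DMCs, and 36.0% of them lay in regions with 10 or more. CpGs lower in fibroblasts formed 5903 regions with a median of 2, and 42.5% of them lay in regions with 10 or more. With a gap of 200 bp these became 9019 regions. In the rest, 3290 of 12510 regions lower in sperm held 10 or more DMCs. There it was 341 of 10668 for regions higher in sperm and 1172 of 39535 for regions lower in fibroblasts. Clustering of CpGs lower in sperm was thus not particular to the ends. For each pattern, the regions with the most DMCs are given with their mean per library. They were chosen by the DMC calls, and their values are a description.

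The largest region lower in sperm lay 219 kb from the end of chromosome 17 (chr17:74936593-74938746), where 97 of 98 CpGs were DMCs. It averaged 4.38% and 7.64% for sperm, against 93.4% and 93.7% for monocytes and 93.3% and 93.8% for fibroblasts. The next was on chromosome 22 (chr22:60039519-60041449, 95 of 99 CpGs), with 4.04% and 5.06% for sperm, against 96.0% and 95.6% for monocytes and 90.7% and 89.1% for fibroblasts. These regions were CpG-dense, with a median of 76.5 and 111 CpGs listed within 500 bp on either side. In the third, on chromosome 9 (chr9:103913794-103915282, 94 of 96 CpGs), sperm averaged 16.4% and 24.1%, and the 4 somatic libraries lay between 94.8% and 97.2%.

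The largest region higher in sperm was also on chromosome 17 (chr17:74834556-74840428, 92 of 165 CpGs), less than 100 kb further in. It averaged 97.2% and 97.8% for sperm, against 19.7% and 19.8% for monocytes and 39.3% and 43.1% for fibroblasts. On chromosome 12 (chr12:90459775-90460450, 48 of 51 CpGs) sperm averaged 98.6% and 97.7%, monocytes 6.12% and 6.88%, and fibroblasts 4.49% and 3.05%. On chromosome 11 (chr11:107077301-107077933, 41 of 45 CpGs) the values were 95.5% and 95.6%, 9.63% and 17.1%, and 10.9% and 19.7%. These 3 regions were almost fully methylated in sperm, and those on chromosomes 12 and 11 were nearly unmethylated in both somatic cell types.

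Regions in which fibroblasts were the lower were partially methylated over several kb. On chromosome 5 (chr5:119513566-119521096, 7531 bp, 65 of 150 CpGs) fibroblasts averaged 63.0% and 69.8%, sperm 97.8% and 97.9%, and monocytes 94.2% and 92.6%. On chromosome 23 (chr23:51430570-51434618, 61 of 114 CpGs) fibroblasts averaged 54.5% and 56.6%, sperm 96.7% and 97.0%, and monocytes 92.4% and 94.01%. The other region of chromosome 5 (chr5:120472463-120477459, 61 of 78 CpGs) had 47.7% and 46.7% in fibroblasts and 91.6% to 97.9% in the 4 others. The 3 regions with the most DMCs higher in fibroblasts were on chromosome 17. In the first (chr17:74530386-74532300, 75 of 95 CpGs) fibroblasts averaged 71.6% and 63.1%, and sperm and monocytes stayed between 0.695% and 3.75%. In the second (chr17:74533897-74535008, 56 of 79 CpGs) fibroblasts averaged 87.6% and 85.5%, sperm 2.63% and 2.49%, and monocytes 13.0% and 26.6%. In the third (chr17:74810705-74812300, 50 of 86 CpGs) fibroblasts averaged only 37.2% and 47.7%. Both kinds of region thus differed from sperm-specific regions in that the odd cell type was often at intermediate levels.

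Monocytes were also low in short regions that were methylated in the other cell types. On chromosome 17 (chr17:73736432-73738773, 48 of 55 CpGs) monocytes averaged 11.1% and 6.47%, sperm 99.4% and 98.6%, and fibroblasts 89.9% and 88.6%. The regions on chromosome 22 (chr22:59460076-59462303, 43 of 57 CpGs) and chromosome 5 (chr5:121009620-121010649, 38 of 45 CpGs) had 12.7% to 16.4% in monocytes, 93.3% to 99.04% in sperm and 82.2% to 86.1% in fibroblasts. Of the regions higher in monocytes, that on chromosome 23 (chr23:50858102-50858833) had all of its 29 CpGs called, with 96.0% and 96.7% in monocytes, 1.19% and 2.06% in sperm, and 12.5% and 5.16% in fibroblasts. On chromosome 15 (chr15:85076477-85077839, 30 of 38 CpGs) monocytes averaged 79.2% and 68.6%, sperm 0.960% and 2.23%, and fibroblasts 13.1% and 12.1%. On chromosome 11 (chr11:106014061-106015339, 40 of 55 CpGs) monocytes averaged 56.3% and 56.5%, against 1.85% to 6.15% in the 4 others. Gene annotation of these positions on UMD3.1 was not used here.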

How the data were processed

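RRBS libraries of 2 sperm, 2 monocyte and 2 fibroblast samples were assigned to groups by their labelled cell type. The authors selected MspI fragments of 40 to 290 bp and sequenced 75 bp paired-end reads. The submitters' processing notes name Trim Galore 0.3.7, Bismark 0.14.3, methylKit and UMD3.1. Coverage per CpG is deposited as read counts, with no normalization. The authors gave methylation as a percent of these reads, cut to 1 decimal, and methylated reads were recovered as whole numbers for all CpGs 5-500. Coverage summed over listed CpGs was 45884839 to 78890776 per library, in which a read counts once at each CpG it covers. PCR reads carry no molecular identifiers, so that intervals cover counting error only.

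The ends, strata, patterns and comparisons were chosen with earlier results of these data known. Means were computed per library and compared by exact two-sided permutation tests over libraries. DMCs were called with scipy 1.17.1 as described, and tiles were fitted with limma 3.58.1 in R 4.3.3. Both procedures were tested on simulated data. The ends named were the 3 highest, the 3 lowest and the 3 most extreme in each direction of sperm minus somatic, and the regions named were the 3 with the most DMCs of each of 6 patterns. Alternatives were Fisher's exact test, a Cochran-Mantel-Haenszel test with a replicate block, limma per CpG, other thresholds, coverage limits and end lengths, and leaving out each library. Replicate numbers do not mark shared animals.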

Additional observations from a re-analysis of the deposited data

Results flagged for a closer look

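On chromosome 14 the end minus rest difference had opposite signs in sperm and in somatic cells. It was -4.14 and -3.62 points in the sperm libraries, 13.0 and 13.9 points in the monocyte libraries, and 14.5 and 12.9 points in the fibroblast libraries. On chromosome 28 it was -1.91 and -1.78 points in the monocyte libraries, 3.48 and 3.67 points in the sperm libraries, and 2.34 and 2.31 points in the fibroblast libraries. These chromosomes were picked out because each replicate of a cell type moved one way and each replicate of another the opposite way, and the difference between cell types was not tested for either chromosome.

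CpGs of the ends covered by more than 500 reads lie outside the members and outside the comparisons above. There were 216 to 257 of them per library, and their mean methylation was 30.1% and 26.7% for sperm, against 89.2% and 88.8% for monocytes and 72.8% and 76.6% for fibroblasts. These CpGs were selected in each library on its own, so that the means are not over one shared set. Sperm was far below the 4 somatic libraries in these means. Over the members, which are the same CpGs in all 6 libraries, it lay within the somatic range. The rest of the same chromosomes showed the same order at CpGs over 500 reads (5728 to 9533 per library), with 23.9% and 21.3% in the libraries of sperm, 81.4% and 81.1% in those of monocytes and 66.4% and 66.9% in those of fibroblasts.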

How the results depend on the processing

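Of 513 values of the comparisons under an alternative, 483 kept their direction, their side of the threshold and, for counts, stayed within 1.5 times. Many were permutation tests of 2 with 2 or 2 with 4 libraries, with smallest p of 0.333 and 0.0667. Their side of the threshold could not change. Leaving out a library that a comparison does not use also leaves its value as it was. When each chromosome counted equally, somatic minus sperm in the ends turned to 1.93 points, the end minus rest difference of monocytes minus sperm to 1.05 points, and that of somatic minus sperm came to -0.0611 points. In the ends with under 5000 members, fibroblasts minus sperm was 4.80 points and somatic minus sperm 9.50 points. The hypomethylated share of monocytes minus fibroblasts turned to 0.153 points with classes split at 10% and 90%, and its end minus rest value to -0.0613 points there and to -0.0215 points with ends of 3 Mb. The end minus rest difference in the intermediate share of sperm turned to -0.123 points at coverage 10 to 500, -0.707 points over each library's own CpGs and between -0.153 and 0.186 points without either sperm replicate (lowest without replicate 2). Over the 6 libraries, that of the intermediate share rose to 5.83 points with the 10% and 90% limits and passed the unadjusted threshold (exact permutation p = 0.03125). With a difference of at least 50 points, 19.2% of the members were DMCs between fibroblasts and sperm, and 9.03% were DMCs between monocytes and fibroblasts, and with a gap of 200 bp the regions lower in fibroblasts were 9019.

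Leaving out each library in turn, the end minus rest difference lay between 23.0 and 24.1 points for the mean, between -26.0 and -25.5 points for the hypomethylated share and between 21.5 and 23.5 points for the hypermethylated share. With 5 libraries the permutation test can no longer pass. The share of DMCs between monocytes and fibroblasts lay between 13.1% (without monocytes replicate 1) and 20.1%.

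Same-numbered replicates did not deviate together in the ends, with correlations over CpGs of 0.00443, 0.0103 and -0.0112 in the 3 comparisons, and come from different animals. With a replicate block (Cochran-Mantel-Haenszel test), 18.7% of the members were DMCs for monocytes and sperm (17.9% of all CpGs tested), 31.3% were such for fibroblasts and sperm (26.4%), and 18.02% were for monocytes and fibroblasts (15.3%), and the block in limma left the counts of end tiles as they were.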
